A study of Mus musculus with 13 samples.

Results

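The genes described here are 5 secreted angiogenic ligands, Vegfa, Vegfb, Vegfc, Angpt1 and Angpt2, and the neuropilins Nrp1 and Nrp2. They were chosen by name and are 7 of the 42416 Ensembl gene identifiers measured in interscapular brown adipose tissue (iBAT). All 7 were found by symbol and all 7 passed the filter on low values. The filter kept genes with more than 1 CPM (read counts scaled to the library total) in at least 5 libraries and left 13360 genes. The CPM values given below are scaled to library totals multiplied by a TMM scaling factor for each library.

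Brown fat carries a dense capillary bed that brings fuel and oxygen to the thermogenic adipocyte and carries heat away. Members of the VEGF family act on receptor tyrosine kinases of endothelial cells, where Vegfa, which cold is known to induce in brown adipocytes, drives blood vessel growth through Kdr, and Vegfc acts mainly through Flt4 on lymphatic vessels. Angiopoietins act on the receptor Tek: Angpt1, made largely by cells around the vessel, keeps vessels quiescent, whereas Angpt2, made by endothelial cells, can oppose it. Neuropilins have no kinase activity of their own and serve as co-receptors, both of VEGF ligands and of class 3 semaphorins, which signal through plexins.

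Whole-tissue RNA was sequenced in 13 libraries, which the labels number as replicates and which are taken here as 1 per mouse. The iFAXLKO group (8 libraries) carried floxed Axl and Cre, and the WT group (5 libraries) carried the same floxed Axl without Cre. Per the methods of the study, the Cre is a tamoxifen-inducible CreERT2 driven by Adipoq from a bacterial artificial chromosome, so that it acts in adipocytes, whereas the RNA came from all cells of the depot. The mice were female littermates, first gavaged with hydroxy-tamoxifen at 6 to 8 weeks of age. Both groups had a high-fat diet (HFD), room temperature and tamoxifen every 3 weeks.

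Libraries held 22437277 to 32595083 counts, and a count of 0 allows up to 3 counts, or 0.0883 to 0.130 CPM, a floor that covers counting error only. Axl averaged 33.1 CPM in libraries labelled iFAXLKO and 27.8 CPM in WT (log2 fold change 0.25, edgeR adjusted p = 0.699), so the deletion does not show in its level here and each direction given rests on the labels. Brown adipocyte markers summed to 8583 to 15567 CPM per library, and all 8 were detected. Skeletal muscle markers summed to 2.75 to 4942 CPM per library. WT replicate 2 stood apart from the other libraries: log2 CPM, relative to each gene's mean, fell by 0.168 for each doubling of exon length there, against slopes of -0.0242 to 0.0662 in the other 12 libraries. It also had the highest summed brown adipocyte markers. For members and receptors, group differences that its omission turned or moved by more than 1.5 times are also given without it.

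The levels of the members formed 3 tiers when counts were divided by exon length. This length joins all annotated exons of a gene, whichever transcript they belong to. Small differences of level between genes therefore depend on the annotation. Vegfb and Vegfa were highest, at 121.0 ± 21.9 and 115.0 ± 15.1 CPM per kb (SD, n = 13), above 97.4% and 97.3% of the genes tested. The neuropilins followed with 14.7 ± 3.14 CPM per kb for Nrp2 and 12.6 ± 3.09 CPM per kb for Nrp1. Angpt1 had 2.23 ± 0.857 CPM per kb, Vegfc 1.04 ± 0.312 CPM per kb and Angpt2 0.396 ± 0.107 CPM per kb, so that the lymphatic ligand and both angiopoietins lay far below the VEGF ligands of blood vessels.

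Within single libraries this order was stable except between Vegfb and Vegfa and between Nrp2 and Nrp1. Vegfb exceeded Vegfa in 7 of 13 libraries, so that their order was not separated from the spread. Vegfa was 7.92 times Nrp2 on average and exceeded it in 13 of 13 libraries. Nrp2 exceeded Nrp1 in 11 of 13 libraries, by a mean ratio of 1.18. Nrp1 lay above Angpt1, Angpt1 above Vegfc and Vegfc above Angpt2 in 13 of 13 libraries each, with mean ratios of 5.86, 2.08 and 2.61. Of the receptors, Kdr at 23.7 and Tie1 at 21.6 CPM per kb lay above both neuropilins, Flt1 at 14.8 CPM per kb was level with Nrp2, and Tek at 10.4 and Flt4, the Vegfc receptor, at 2.01 CPM per kb lay below.

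**Figure D1:**
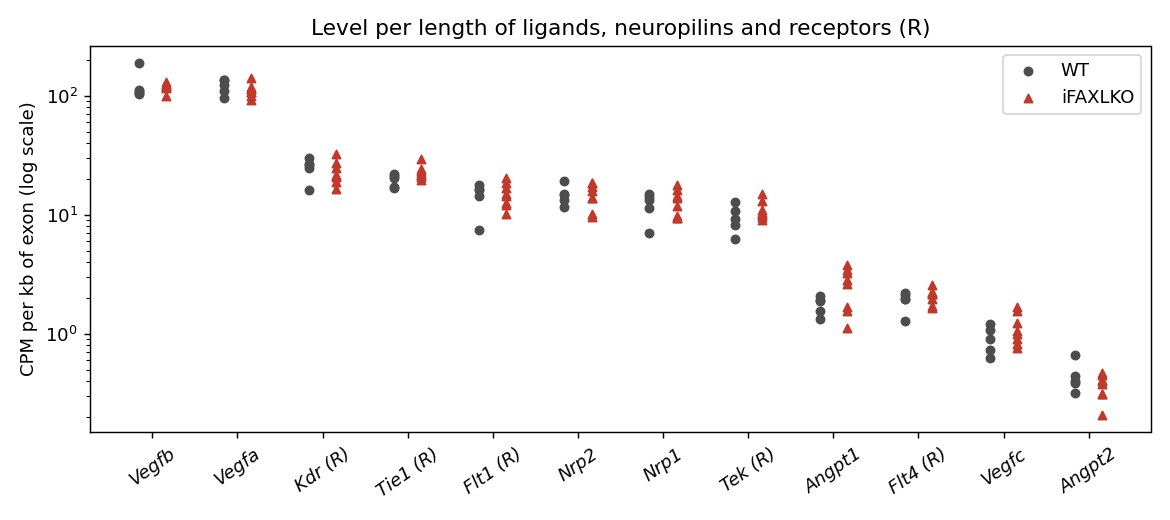
Level per exon length (CPM per kb, log axis) of the 7 members and of 5 receptors marked R, ordered by the mean over 13 libraries. Each circle is a WT library (n = 5) and each triangle an iFAXLKO library (n = 8). Vegfb and Vegfa stand above all others, the neuropilins lie among the receptors, and Vegfc and Angpt2 are lowest.

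The comparison of the groups asks whether Cre activity against Axl in adipocytes goes with other levels of these vascular signals. None of the 7 members passed the limit of an adjusted p under 0.05 in edgeR, against 0.127% of all genes tested, and 0 of 7 had an unadjusted p under 0.05, against 7.38% of all genes. None did in DESeq2 after adjustment either, although there 1 member, Angpt1, had an unadjusted p under 0.05 (0.0337, adjusted p = 0.527). With upper quartile factors or an endothelial marker score as a covariate, 1 member also had an unadjusted p under 0.05. The same held without iFAXLKO replicate 1, 3 or 5 and without WT replicate 2, and 0 members passed the adjusted limit in these fits. The ranges of the groups overlapped for all 7, where 0.434% of the genes tested had ranges that did not. In bulk tissue, fewer cells of a type and less RNA per cell cannot be told apart.

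Vegfa (ENSMUSG00000023951, chromosome 17, 46016993 to 46032369, GRCm38) had 471, 410, 581, 526.4 and 577 CPM in WT replicates 1 to 5. In the iFAXLKO libraries it ran from 397 to 600 CPM with a median of 476 CPM. The lowest and the highest library of all were both iFAXLKO, replicates 2 and 5, and the WT values lay between them. The iFAXLKO mean was 480 ± 60.5 CPM (SD, n = 8), the WT mean 513 ± 73.0 CPM (SD, n = 5), and 1 of 8 iFAXLKO libraries lay above the WT mean. Its log2 fold change was -0.09 (SE 0.11, 95% interval -0.32 to 0.13), with an edgeR adjusted p of 0.906, and was -0.17 without WT replicate 2 and -0.03 without WT replicate 3.

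Vegfb (ENSMUSG00000024962, chromosome 19, 6982473 to 6987651) encodes a ligand of Flt1 that is known for its high expression in tissues rich in mitochondria. WT replicates 1 to 5 had 170, 300.1, 165, 175 and 179 CPM, and the iFAXLKO libraries 160 to 209 CPM with a median of 194 CPM. WT replicate 2 alone was far above every other library. The log2 fold change was -0.04 (SE 0.13, interval -0.32 to 0.23, edgeR adjusted p = 0.98), and without WT replicate 2 it turned to 0.16 (unadjusted p = 0.0381, adjusted p = 0.392). Of the 8 iFAXLKO libraries, 3 lay above the WT mean, and 7 exceeded the highest of the other 4 WT libraries.

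Vegfc (ENSMUSG00000031520, chromosome 8, 54077606 to 54187096) was sparse, with 40 to 124 reads per library. It had 1.80, 2.61, 2.94, 1.53 and 2.19 CPM in WT replicates 1 to 5 and 1.87 to 4.14 CPM (median 2.53) in the iFAXLKO libraries. The 3 highest values were all from iFAXLKO libraries, and the other 5 iFAXLKO libraries lay among the WT values. The log2 fold change was 0.32 (SE 0.22, interval -0.15 to 0.79, edgeR adjusted p = 0.807), and 5 of 8 iFAXLKO libraries lay above the WT mean.

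Angpt1 (ENSMUSG00000022309, chromosome 15, 42424723 to 42676977) differed most between the groups and varied most within iFAXLKO. WT replicates 1 to 5 had 10.7, 9.82, 6.91, 8.06 and 9.95 CPM. The iFAXLKO replicates 1 to 8 had 8.12, 16.9, 5.78, 14.7, 8.75, 17.9, 13.7 and 19.5 CPM. Thus 5 of 8 iFAXLKO libraries exceeded every WT library, and the other 3 lay among or below the WT values. Means were 13.2 ± 5.05 CPM (SD, n = 8) and 9.09 ± 1.56 CPM (SD, n = 5), that is a coefficient of variation of 38.3% against 17.1%, whose difference was not tested.

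The log2 fold change of Angpt1 was 0.54 (SE 0.26, interval -0.03 to 1.10), with an edgeR p of 0.0600 and an adjusted p of 0.696, and the exact permutation test of the mean log2 CPM gave a p of 0.171. The labels number the libraries, but the division into lower (n = 6) and higher (n = 7) numbers was made here. The higher numbers are not consecutive, so these sets cannot be read as labelled batches. The difference of Angpt1 was 0.02 within the lower and 0.79 within the higher numbers. It was 0.17 with the replicate number as a block (adjusted p = 0.840), although the labels do not say that these numbers pair mice. With the endothelial score as a covariate it was 0.68 (unadjusted p = 0.00471, adjusted p = 0.419). An antisense gene, Gm17473, shares 737 exonic bases with Angpt1 but had 48 reads in all 13 libraries together.

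Angpt2 (ENSMUSG00000031465, chromosome 8, 18690263 to 18741562), which lies inside Mcph1 on the opposite strand, was the scarcest member, with 21 to 58 reads per library. It had 1.64, 1.17, 1.47, 1.41 and 2.45 CPM in WT replicates 1 to 5 and 0.769 to 1.73 CPM (median 1.43) in the iFAXLKO libraries. The lowest library was iFAXLKO replicate 2 and the highest WT replicate 5, and the remaining values were interleaved. Its log2 fold change was -0.26 (SE 0.21, interval -0.71 to 0.19, edgeR adjusted p = 0.855), of which -0.07 remained without WT replicate 5.

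Nrp1 (ENSMUSG00000025810, chromosome 8, 128358604 to 128503363) had 137, 69.0, 113, 130.4 and 146 CPM in WT replicates 1 to 5 and 92.1 to 176 CPM (median 125) in the iFAXLKO libraries. WT replicate 2 was the lowest of all libraries, and iFAXLKO replicate 8 the highest. The log2 fold change was 0.08 (SE 0.19, interval -0.33 to 0.49, edgeR adjusted p = 0.970) and turned to -0.06 without WT replicate 2.

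Nrp2 (ENSMUSG00000025969, chromosome 1, 62703285 to 62818695) had 178, 138, 172, 157 and 228 CPM in WT replicates 1 to 5, against 113 to 220.4 CPM (median 177) in the iFAXLKO libraries. Means were 174 ± 41.7 CPM (SD, n = 8) and 175 ± 33.3 CPM (SD, n = 5), nearly the same. Its log2 fold change was -0.00 (SE 0.17, interval -0.36 to 0.36, edgeR adjusted p = 0.999). Without WT replicate 2 it was -0.0761. The sign of Nrp2 turned in 7 of the 13 fits that left out 1 library.

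**Figure D2:**
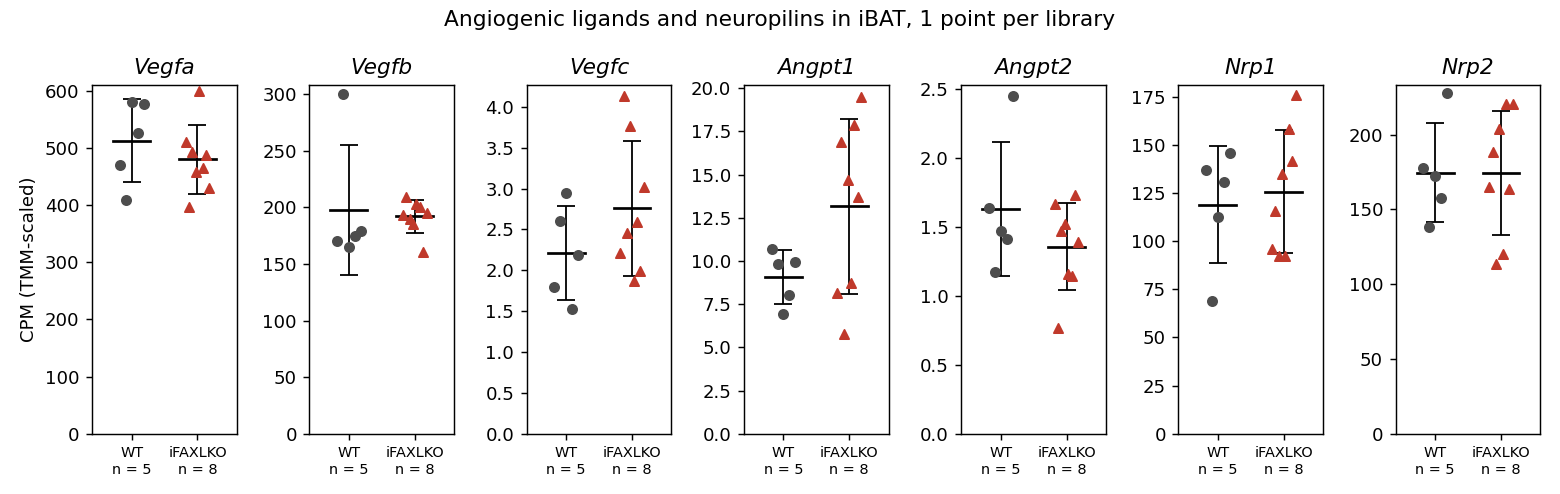
CPM of each member in every library (linear axes from 0, a scale per gene), WT (circles, n = 5) and iFAXLKO (triangles, n = 8), with mean (line) and SD (bars). The groups overlap for all 7 genes; Angpt1 is spread most widely in iFAXLKO, from 5.78 to 19.5 CPM, and WT replicate 2 is the single high Vegfb value of 300.1 CPM.

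Because library composition scales 2 genes of the same library alike, 3 ratios of CPM per kb were also compared. The ratio of Angpt2 to Angpt1, often read as the balance between the destabilising and the stabilising angiopoietin, was 0.216, 0.169, 0.3001, 0.247 and 0.347 in WT replicates 1 to 5. In the iFAXLKO libraries it ran from 0.0643 to 0.358 with a median of 0.161. The 4 lowest ratios were from iFAXLKO, and so was the highest. On the log2 scale the mean was -2.71 ± 0.84 (SD, n = 8) against -2.01 ± 0.41 (SD, n = 5), a difference of -0.70 with an exact permutation p of 0.115 (0.345 adjusted over the 3 ratios, 2-sided, smallest possible p 0.000777). It ranged from -0.88 without iFAXLKO replicate 3 (exact permutation p = 0.0429) to -0.52 without iFAXLKO replicate 2 (exact permutation p = 0.181).

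Vegfa and Vegfb were near parity, with medians of 1.13 in WT and 0.948 in iFAXLKO, and the difference of the mean log2 ratio was -0.08 (exact permutation p = 0.727, adjusted 0.727). WT replicate 2, at 0.511, was the lowest of all libraries. Without it, the ratio was lower in iFAXLKO by -0.32 on the log2 scale, with an exact permutation p of 0.0263 that was not adjusted, so that 1 library decides this value. For Nrp1 to Nrp2 the medians were 0.791 in WT and 0.899 in iFAXLKO, and the difference of 0.11 had an exact permutation p of 0.441 (adjusted 0.662) and was 0.00 without WT replicate 2.

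**Figure D3:**
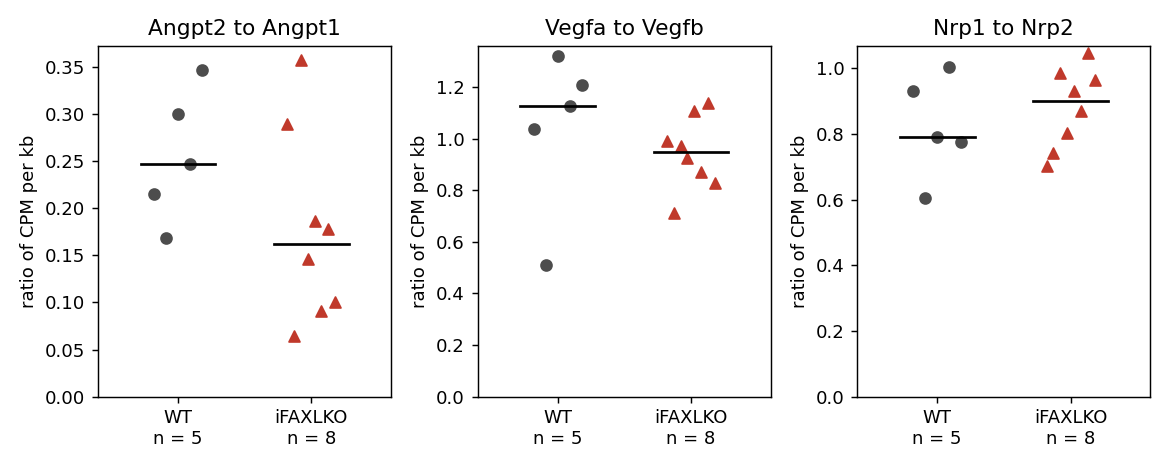
Ratios of CPM per kb within a library (linear axes from 0), with 1 point per library and a line at the median, for WT (n = 5) and iFAXLKO (n = 8). The Angpt2 to Angpt1 ratio reaches lower in iFAXLKO (0.0643) than in WT (0.169), and the highest values are 0.358 and 0.347; WT replicate 2 is the low Vegfa to Vegfb value of 0.511.

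The VEGF and angiopoietin receptors, among which Tie1 is counted, gave no call. Of the 5 receptors tested, 0 passed the adjusted limit in edgeR and in DESeq2, and 1, Tie1, had an unadjusted p under 0.05. Over all genes tested in edgeR, 0.127% passed the adjusted limit and 7.38% had an unadjusted p under 0.05. Their median log2 fold change was 0.13, beside -0.01 over all genes. Tie1, an orphan partner of Tek that modulates angiopoietin signalling, averaged 112 ± 14.6 CPM (SD) in iFAXLKO and 96.5 ± 11.7 CPM (SD) in WT. The log2 fold change was 0.22 (SE 0.10, edgeR p = 0.0444, adjusted p = 0.657, exact permutation p = 0.0544), and 8 of 8 iFAXLKO libraries lay above the WT mean although the ranges overlapped. The unadjusted p of Tie1 was not under 0.05 in 7 of the 13 fits that left out 1 library (log2 fold change 0.17 to 0.27), nor in limma-voom or with the library number or a muscle, endothelial or fibroblast score as a covariate, and with the fibroblast score its log2 fold change was 0.0892. Tek itself had 0.22 (SE 0.16, adjusted p = 0.809), Flt4 0.13 (adjusted p = 0.894), Flt1, which binds Vegfa and Vegfb, 0.05 (adjusted p = 0.981) and Kdr -0.12 (adjusted p = 0.928). Without WT replicate 2 the log2 fold change was 0.10 for Tek, 0.0127 for Flt4, -0.24 for Kdr and -0.11 for Flt1, so the receptor values other than that of Tie1 depend strongly on this library.

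Further members of the ligand families added little signal. Vegfd, the other lymphatic ligand, averaged 3.05 ± 0.645 CPM in iFAXLKO and 2.69 ± 0.562 CPM in WT (SD), and its log2 fold change was 0.18 (edgeR adjusted p = 0.880). Pgf, a Flt1 ligand, stayed under the filter at 0.469 ± 0.212 and 0.409 ± 0.175 CPM, and Angpt4 was at or near the floor, with 0.0966 ± 0.0847 and 0.136 ± 0.114 CPM in iFAXLKO and WT.

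**Figure D4:**
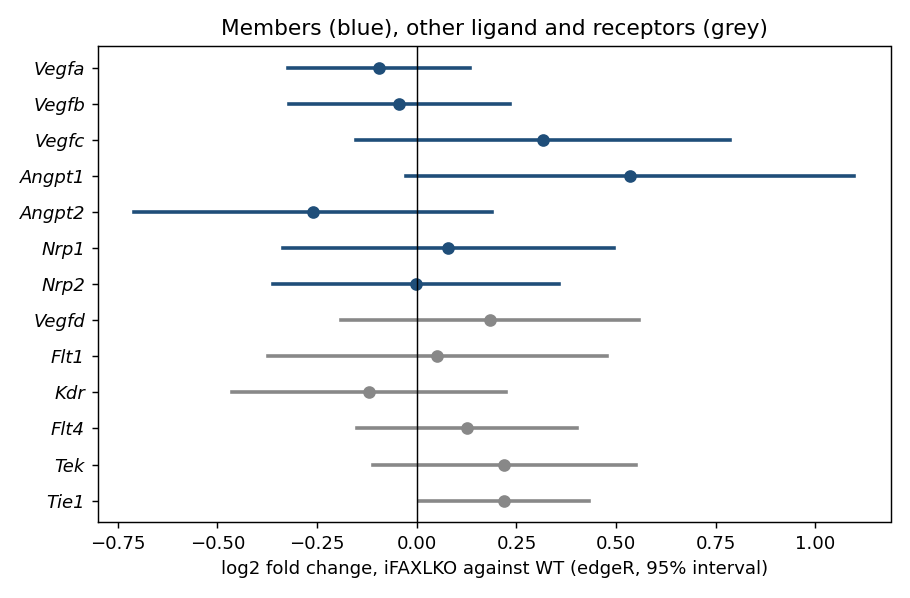
Log2 fold change of iFAXLKO against WT (points) with 95% intervals from the edgeR fit, for the 7 members (blue), and for Vegfd and the 5 receptors (grey). All intervals include 0 except that of Tie1, which starts at 0.01 and whose adjusted p was 0.657.

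Class 3 semaphorins compete with VEGF ligands for neuropilins and signal through plexins. Of the 12 genes listed, 9 passed the filter, with a median log2 fold change of 0.15. In edgeR 0 passed the adjusted limit and 0 had an unadjusted p under 0.05, against 0.127% and 7.38% of all genes tested. The smallest p-values belonged to Sema3f, a Nrp2 ligand (log2 fold change 0.16), Plxna3 (0.25), Sema3g, which is made by endothelial cells (0.15), and Sema3c (0.16), with adjusted p-values from 0.872 to 0.926. Sema3g was the main semaphorin, with 68.1 ± 15.6 and 61.3 ± 10.5 CPM, that is 14.4 CPM per kb, beside a plexin level of 20.5 CPM per kb for Plxnd1. Among 12 other angiogenic factors 11 were tested, with 0 past the adjusted limit (0.127% of all genes) and 0 at an unadjusted p under 0.05 (7.38%). Apln, an endothelial peptide ligand, had the smallest p (log2 fold change 0.68, SE 0.35, adjusted p = 0.709), followed by Pdgfa, Fgf1 and Pdgfb with 0.23, -0.20 and 0.18.

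Markers of other cells moved with the groups to different extents. For the 9 endothelial markers the log2 fold changes were all positive (0.01 to 0.23, median 0.15) with 0 calls and 0 at an unadjusted p under 0.05, and their summed level was 654 to 1035 CPM in iFAXLKO and 683 to 836 CPM in WT. Cdh5, the endothelial cadherin, had 0.21 (adjusted p = 0.753). The 9 pericyte and smooth muscle markers had a median of 0.14 and summed to 740 to 962 CPM in iFAXLKO and 600 to 917 CPM in WT. The 8 fibroblast markers had a median of 0.69, with 0 past the adjusted limit and 8 at an unadjusted p under 0.05. They summed to 437 to 972 CPM in iFAXLKO and 315 to 567 CPM in WT. The 6 macrophage markers had a median of 0.41, with 0 past the adjusted limit and 6 at an unadjusted p under 0.05. Over all genes tested in edgeR, 0.127% passed the adjusted limit and 7.38% had an unadjusted p under 0.05. Of 5 lymphatic markers 3 passed the filter, 0 passed the adjusted limit and 1 had an unadjusted p under 0.05, and the sum of 6.61 to 12.5 against 2.47 to 11.5 CPM was low in both groups, with Ccl21a listed at 0 in every library and Prox1 under the filter. The 8 brown adipocyte markers had a median of -0.16, with 0 past the adjusted limit and 1 at an unadjusted p under 0.05. The part of these cells in the values of the ligands was not tested beyond the fits with a score as a covariate. With the fibroblast score, chosen after seeing the data, Angpt1 had 0.47 (adjusted p = 1.00) and Vegfa turned to 0.01.

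Across the mice some members varied together. The 13 libraries were compared after subtracting group means, over 56 relations of members with each other and with receptors, and p-values were adjusted over these 56. Vegfa followed Flt1, with Pearson's r of 0.86 (permutation p = 9e-05, adjusted 0.00504) and Spearman's rho of 0.81 (permutation p = 0.00107, adjusted 0.0599). Within the lower (n = 6) and higher (n = 7) library numbers r was 0.83 and 0.88. With the 2 libraries most extreme in Flt1 left out r was 0.71. It was 0.80 without WT replicate 2 and 0.85 after a trend over exon length was removed. Flt1 ranked 16 of 13359 genes by its r with Vegfa, so that 0.112% of genes had a higher one, whereas Vegfa ranked 172 by r with Flt1, with 1.28% of genes higher.

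The neuropilins varied together, with r of 0.80 (permutation p = 0.0011, adjusted 0.0273) and rho of 0.79 (permutation p = 0.0023, adjusted 0.0644). This r was 0.73 and 0.91 within the lower and higher library numbers, 0.75 without the 2 farthest libraries and 0.67 after the exon length trend was removed, the exons of these genes spanning 9785 and 11842 bases. Angpt1 followed Nrp2 with r of 0.78 (permutation p = 0.00146, adjusted 0.0273) and rho of 0.76 (permutation p = 0.00393, adjusted 0.0734), and with r of 0.87 and 0.95 within the library numbers and 0.73 without the 2 farthest libraries. Of the other genes, 2.78% had a higher r with Nrp1 than Nrp2 had, and 1.10% a higher r with Nrp2 than Nrp1 had. For Angpt1 and Nrp2 these shares were 1.33% by r with Angpt1 and 1.40% by r with Nrp2. By the size of r, whatever its sign, the shares for the neuropilins were 6.80% with Nrp1 and 1.49% with Nrp2. Those for Angpt1 and Nrp2 were 2.14% with Angpt1 and 2.01% with Nrp2.

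The only other relation with an adjusted permutation p under 0.05 for r was Flt4 with Vegfb, which was negative (r -0.80, adjusted 0.0277, rho -0.60, adjusted 0.209), was -0.86 and -0.40 within the lower and higher library numbers and was -0.45 without WT replicate 2. By rho no relation had an adjusted p under 0.05.

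**Figure D5:**
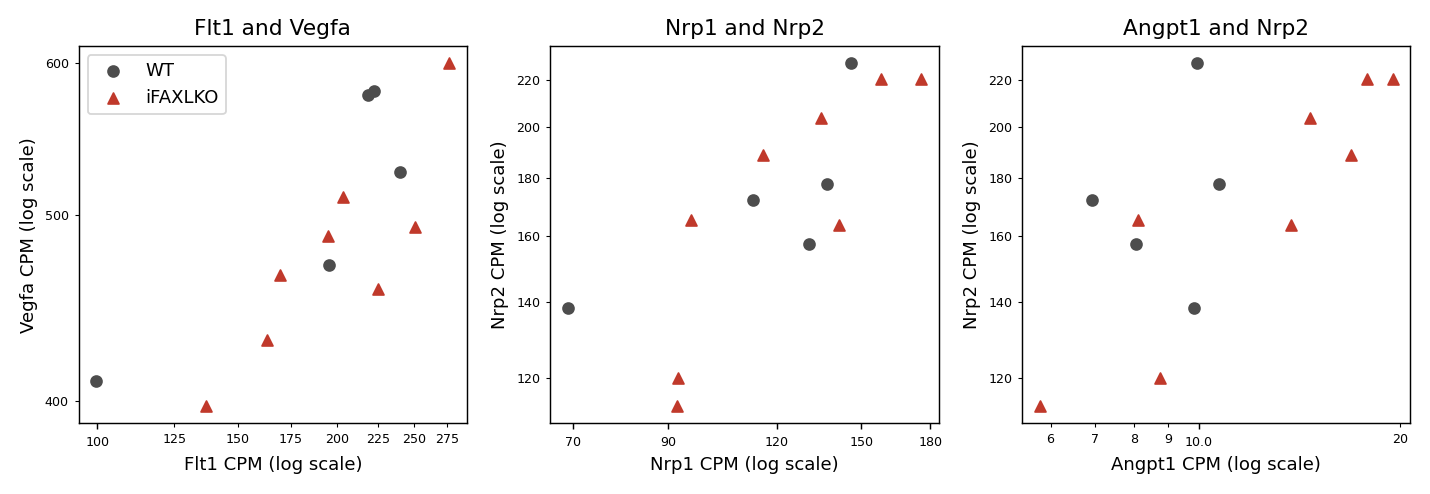
CPM in each library on log axes for Flt1 and Vegfa, Nrp1 and Nrp2, and Angpt1 and Nrp2, with WT as circles (n = 5) and iFAXLKO as triangles (n = 8). The points rise together in each panel, with r of 0.86, 0.80 and 0.78 after subtracting group means; the groups are interleaved for Flt1 and Vegfa and for the neuropilins, and 5 iFAXLKO libraries lie beyond the WT range of Angpt1.

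Against marker scores, each the mean log2 CPM of the tested genes of a list and not their summed CPM, 21 relations were computed. Angpt1 was low where endothelial markers were high (r -0.73, permutation p = 0.00474, adjusted 0.0510; rho -0.70, permutation p = 0.0101, adjusted 0.211), with -0.47 and -0.92 within the lower and upper library numbers and -0.60 without the 2 farthest libraries. Nrp1 and Nrp2 were low where brown adipocyte markers were high (r -0.73 and -0.70, adjusted permutation p 0.0510 and 0.0559; rho -0.52 and -0.59, adjusted 0.241 each), with -0.87 and -0.84 within the lower library numbers and -0.80 and -0.64 within the upper. These r were -0.53 and -0.56 without the 2 libraries most extreme in the score, -0.61 and -0.66 without WT replicate 2, and -0.46 and -0.58 after the exon length trend was removed. Neither neuropilin had a positive r with the endothelial score, at -0.42 and -0.49. No relation of the 21 had an adjusted p under 0.05.

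The genes most alike to each member over the 13 libraries, by the same r, are given as a description. They were Pde4c, 4933407K13Rik and Cnot3 for Vegfa (r 0.90 each), Ubl7, D10Jhu81e and Ndufv1, a subunit of respiratory complex I, for Vegfb (0.97 to 0.98), and Cnksr3, Klhl36 and Trmt9b for Vegfc (0.85 to 0.92). For Angpt1 they were Arhgap1, Dse and Chtf8 (0.92 to 0.94), for Angpt2 Gse1, Zfp882 and Gm38387 (0.84 each), for Nrp1 Cmtr1, Mob1a and Pitpnm2 (0.96 to 0.97), and for Nrp2 Dag1, Zfp41 and Zeb2 (0.93 to 0.94). These libraries share depth, composition and, for WT replicate 2, a different relation of counts to exon length.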

How the data were processed

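The values deposited by the authors are unnormalized gene counts under Ensembl identifiers, in 1 file per library. The submitters' processing notes name fastp 0.20.0, STAR 2.7.4a and the build GRCm38.p6, whereas the methods of the study name Trim Galore and hisat2; the counting tool and strand setting are not given in the sources used here. GENCODE M21 (GRCm38) gave positions and exon lengths.

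Genes over 1 CPM in at least 5 libraries were scaled by TMM and tested with edgeR 4.0.16 (quasi-likelihood F test, robust, 2-sided), with Benjamini-Hochberg adjustment over 13360 genes. The standard error is the log2 fold change divided by the square root of F. A prior count of 2 was added for CPM on the log2 scale. Single values were compared by an exact permutation test over all 1287 assignments of the group labels, and relations across libraries by a permutation test. The fit was checked on simulated data with 200 changed genes. The lowest chi-square between libraries of a group was 16.56 per degree of freedom, so each counts as 1 replicate. The labels and the study's legends give the libraries as separate mice.

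Members and lists were chosen with earlier results of these data known. All members and receptors are named, of further pathway lists up to 4 genes with the smallest p, of marker lists up to 3, and for each member the 3 genes with the highest r. Correlations with scores and between genes, the fibroblast covariate and the removal of an exon length trend were chosen after seeing the data. Alternatives were DESeq2 1.42.0, limma-voom (limma 3.58.1), other scalings, filters and covariates, the replicate block and leaving out each library.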

Additional observations from a re-analysis of the deposited data

Results flagged for a closer look

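Among 36 checks of a group's libraries for a single library far from the rest, 2 were positive, both in WT replicate 2, where chance gives about 1 in 20. Vegfb had 300.1 CPM in that library, against 165 to 179 CPM in the other 4 WT libraries. Flt4 had 10.5 CPM there, against 16.2 to 17.99 CPM in the others. The exon lengths of these genes are 1605 and 8232 bases, and the same library had the steepest fall of counts with exon length. The part of that trend in these values was not tested gene by gene.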

How the results depend on the processing

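As in the edgeR fit, 0 of the 7 members, 0 of the 5 receptors and 0 of the semaphorins and plexins passed the limit under any alternative that was run. The count over all genes was 17 and moved to 67 with DESeq2, to 7 with the replicate block and to 7 with the fibroblast score, and was 14 to 19 without 1 library. At an unadjusted p under 0.05, 513 genes were higher and 473 lower, against 651 and 311 with upper quartile factors. Replicate numbers showed no consistent pairing of the mice, although 5 numbers are too few to exclude it. Deviations of same-numbered libraries correlated from -0.614 to 0.422 over 5 numbers, and 2 of 5 WT libraries correlated best with their own number. The block turned Vegfb to 0.0259 and Nrp1 to -0.14 (log2 fold change). Limma-voom with quality weights turned Vegfb to 0.14, Nrp1 to -0.0916 and Flt1 to -0.14, and the fibroblast score turned Vegfa to 0.0149, Vegfb to 0.0378, Nrp2 to 0.14 and Kdr to 0.0158. Nrp2 turned to 0.0258 with upper quartile factors, 0.00128 with library sizes without the most abundant genes, 0.0184 with the library number and 0.0596 with the endothelial score, which turned Flt1 to -0.0763. The cause of these turns was not tested. Leaving out 1 library, the log2 fold change ran from -0.0931 to 0.16 for Vegfb, -0.0645 to 0.16 for Nrp1, -0.0761 to 0.11 for Nrp2 and -0.11 to 0.14 for Flt1. It kept its sign for Vegfa (-0.17 to -0.03), Vegfc (0.21 to 0.46), Angpt1 (0.43 to 0.65) and Angpt2 (-0.35 to -0.07). The difference of the log2 ratio ran from -0.88 to -0.52 for Angpt2 to Angpt1 and from -0.32 to 0.0195 for Vegfa to Vegfb. Within the lower and higher library numbers, the differences were 0.08 and -0.19 for Vegfa, -0.22 and 0.13 for Vegfb, and 0.47 and 0.11 for Vegfc. They were -0.08 and -0.35 for Angpt2, 0.15 and 0.10 for Nrp1, and 0.06 and -0.06 for Nrp2. At 21 to 58 reads per library for Angpt2 and 40 to 124 for Vegfc, counting error widens these values.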
